A study of Mus musculus with 2 samples.

Results

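The 45 genes described here encode the carriers and enzymes that bring glucose and lactate into a cell, break glucose down to pyruvate, interconvert pyruvate and lactate, feed pyruvate into mitochondria and oxidise it in the tricarboxylic acid (TCA) cycle. They were chosen by name as a pathway and not by a cut on their values, though earlier results of these data were known. All 45 were found among the 43346 genes with Ensembl identifiers in the tables. By step, 4 are carriers of the plasma membrane, 14 are glycolytic, 2 encode lactate dehydrogenase, 11 serve pyruvate use and 14 the TCA cycle. Succinate dehydrogenase is not among the 45 and is given among 76 other genes of glucose metabolism.

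The material was a single group of 2 pools of 30 Purkinje cells, cut by laser from the cerebellum of B6CASTF1/J mice, a first-generation cross of C57BL/6 with CAST. The mice were male and 14 months old, with no treatment or engineered allele on the labels. The pools are numbered as biological replicates but carry the same donor identifier, so the standard deviation (SD, n = 2 throughout) may be technical, and a level in a pool cannot be assigned to cells: fewer cells of a type and less RNA per cell cannot be told apart. No condition was compared, and with 1 library on each side no p-value is given.

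Purkinje cells are large inhibitory neurons that fire continuously, and ion pumping makes them heavy users of ATP. Glycolysis splits glucose in the cytosol, pyruvate enters mitochondria through a dedicated carrier, and pyruvate dehydrogenase commits it to the TCA cycle, whose reduced cofactors drive respiration. Neurons and astrocytes use different isozymes of several steps, and glia are held to export lactate that neurons can oxidise, so isozyme shares are a usual description of a neural cell's fuel use.

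Expected counts totalled 31503819 for pool 1 and 28709397 for pool 2, where an expected count is a read estimate that need not be whole. Levels are TPM (transcript abundance corrected for length and scaled to a fixed total per library). A TPM of 1 or more is called detected here. All 12 Purkinje cell markers were detected in each pool, with summed TPM of 95499 in pool 1 and 94812 in pool 2. Of 14 Bergmann glia and astrocyte markers, 13 were detected in each, with sums of 3071 and 5307, and the exception was Gfap at 0.50 and 0.47. The granule cell list summed to 42.5 and 56.1 over 10 genes, the interneuron list to 160 and 435 over 9 (Npy alone gave 135 and 411), and the oligodendrocyte list to 38.5 and 54.5 over 10. Sums were 7.82 and 6.45 for 10 microglial genes, and 23.9 and 16.1 for 11 endothelial and mural genes. The interneuron markers Pax2 and Sst were at 0 in pool 1 and the oligodendrocyte factor Olig2 at 0 in pool 2. Haemoglobin and other red blood cell genes summed to 2453 in pool 1 and 16.3 in pool 2.

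The pathway as a whole was well represented. Detection in both pools held for 41 of the 45 genes (91.1%), against 30.3% of the 21474 protein-coding genes. The median of log2(TPM + 1) over the 45 was 4.65 for pool 1 and 5.28 for pool 2, averaging 4.96 ± 0.44, against 2.15 ± 0.18 for the 8958 genes detected in either pool. Levels spanned a wide range within the pathway, with 10 genes above a mean TPM of 100, 18 between 10 and 100, and 17 below 10. The highest were Mpc1, Ldhb, Aldoa, Mdh1, Gapdh, Mpc2, Pkm, Pgam1, Mdh2 and Pgk1.

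In that order Mpc1 stood above Ldhb and Ldhb above Aldoa without overlap of the pools. Aldoa, Mdh1 and Gapdh overlapped and were not ordered. Over the whole list, 32 of the 44 neighbours in rank overlapped between pools, so the rank of most genes is known only to within a few places. At the other end, Slc16a7, Pdk1 and Pdk4 were under a TPM of 1 in both pools, and Suclg2 passed it in pool 2 alone. Nearest to that threshold were Hk1 and Suclg2 above it by mean TPM, at 1.54 and 1.55 and at 0.62 and 2.75 TPM, and Pdk1 and Pdk4 below it, at 0.44 and 0.73 and at 0.32 and 0.63 TPM.

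**Figure D1:**
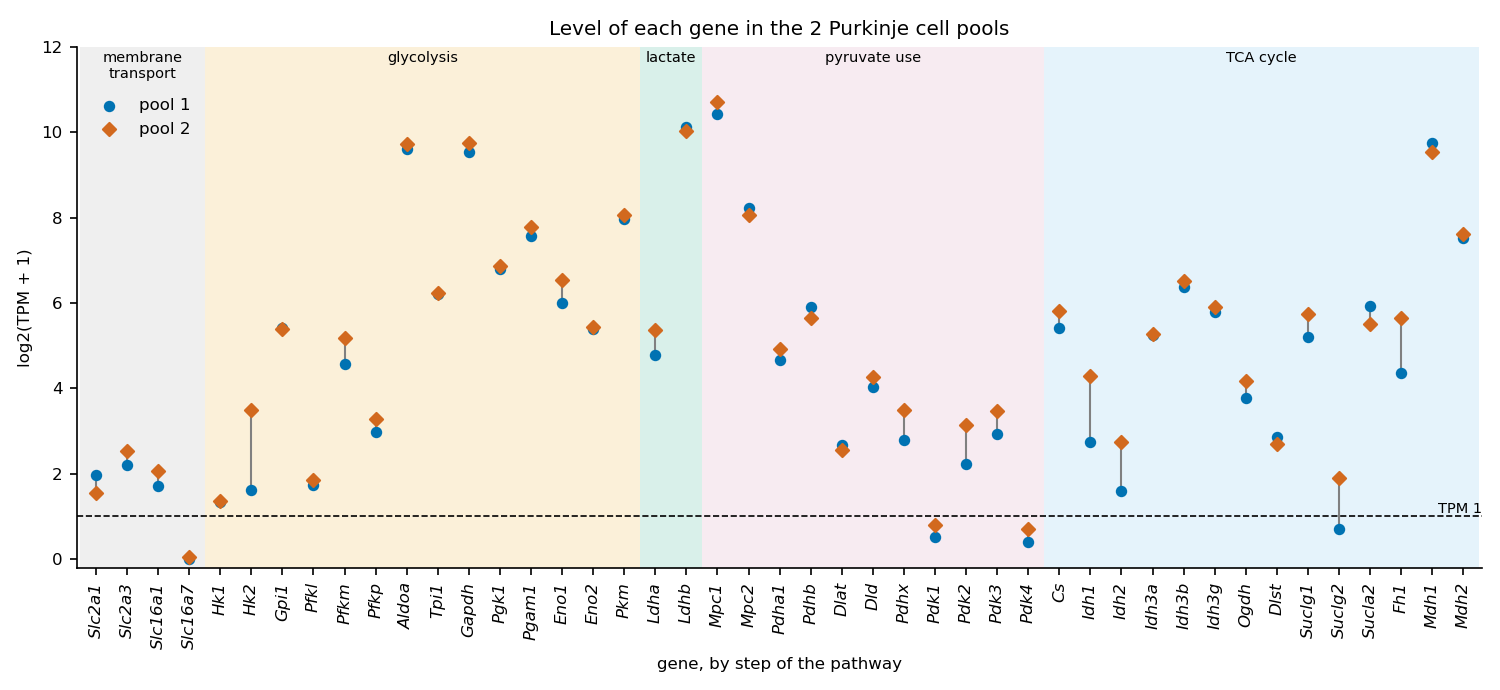
Level of each of the 45 genes as log2(TPM + 1) (y axis) in pool 1 (circles) and pool 2 (diamonds), ordered along the pathway on the x axis, with a line joining the pools and a dashed line at a TPM of 1. The carriers of the plasma membrane sit near the bottom in both pools, Mpc1 and Ldhb at the top, and the widest gaps between pools are at Hk2, Idh1, Idh2, Suclg2 and Fh1.

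Carriers of the plasma membrane were the lowest group, with a summed TPM of 8.77 in pool 1 and 9.97 in pool 2. Slc2a1, the glucose carrier GLUT1 that is prominent in glia and endothelium, had 2.89 and 1.94 TPM in pools 1 and 2. Slc2a3, the neuronal glucose carrier GLUT3, had 3.60 and 4.80 TPM. By gene-level TPM Slc2a3 made up 55.5% of the pair in pool 1 and 71.2% in pool 2.

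That Slc2a3 signal lay almost wholly in Slc2a3-204, a transcript annotated as a retained intron, with 901 expected counts in pool 1 and 892 in pool 2. Protein-coding transcripts of Slc2a3 had 0 TPM in pool 1 and 0.65 in pool 2, from 0 and 66.8 counts. Counting only protein-coding transcripts, Slc2a3 held 0% and 25.1% of the pair, so the order of the carriers turned over with the transcripts counted.

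The monocarboxylate carriers MCT1 and MCT2 pass lactate and pyruvate across the plasma membrane. Slc16a1 (MCT1) had 2.28 and 3.20 TPM, from 401 and 484 counts. Slc16a7 (MCT2), the form usually ascribed to neurons, had 0 and 4 counts, where 3 counts in pool 1 correspond to a TPM of 0.0254. Bsg, the chaperone that brings MCT1 to the membrane and is not among the 45, had 49.9 and 64.4 TPM.

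Hexokinase, the first enzyme of glycolysis, was the lowest step of the glycolytic chain. Hk1 (chromosome 10, 62268855 to 62379908, mm10), the usual brain form bound to mitochondria, had 1.54 and 1.55 TPM from 262 and 215 counts. Hk2 (chromosome 6, 82725025 to 82774454) had 2.09 and 10.2 TPM from 138 and 291 counts. By gene-level TPM Hk1 was 42.4% of the pair in pool 1 and 13.2% in pool 2, averaging 27.8% ± 20.7.

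Most Hk2 TPM came from Hk2-202, a non-coding transcript of 594 bases that had 32.4 counts in pool 1 and 165 in pool 2. The full-length coding transcript Hk2-201 had 0.48 and 0.67 TPM. On protein-coding transcripts alone Hk1 was the higher form in both pools, at 76.2% and 69.8%, a mean of 73.0% ± 4.54. By expected counts, which are not corrected for length, its share was 65.5% and 42.5%. Hk3 and Hkdc1 were each under a TPM of 1, with Hk3 at 0.06 and 0 and Hkdc1 at 0 and 0.10.

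The next enzymes stood above hexokinase in TPM. Gpi1, glucose phosphate isomerase, had 41.6 and 40.7 TPM in pools 1 and 2. Phosphofructokinase, the committed step, was mainly the muscle-named isoform Pfkm (chromosome 15, 98092589 to 98132451), with 22.7 and 35.5 TPM. Pfkp, the platelet-named form, had 6.87 and 8.67 TPM, and Pfkl, the liver-named form, 2.31 and 2.61 TPM.

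Pfkm held 71.2% of the 3 forms in pool 1 and 75.9% in pool 2, averaging 73.6% ± 3.30. The order Pfkm, Pfkp, Pfkl held in both pools and by counts, by protein-coding transcripts and by TPM. Pfkp overlaps Pitrm1 on the opposite strand, whose counts equalled 28.2% of those of Pfkp in pool 1 and 8.83% in pool 2. No source used here says whether the libraries kept strand, so reads of the pair cannot be told apart by strand.

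**Figure D2:**
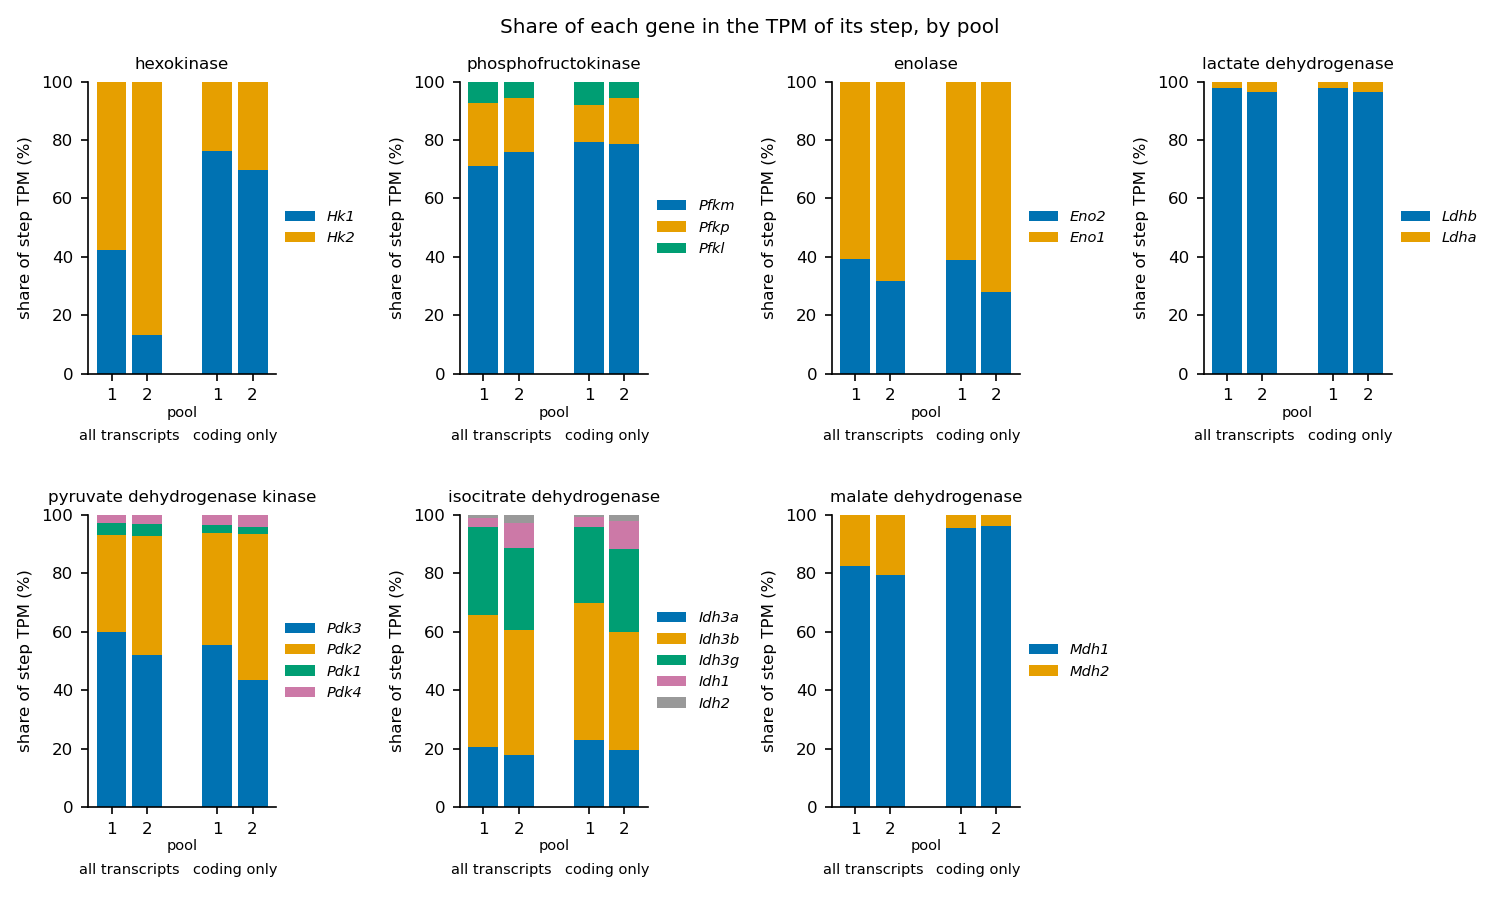
Share of each gene in the summed TPM of its enzymatic step (y axis, percent) for 7 steps, with pools 1 and 2 side by side, from all transcripts (left pair of bars in each panel) and from protein-coding transcripts only (right pair). The hexokinase panel turns over between the pairs, while Ldhb, Pfkm and Mdh1 lead their steps in all 4 bars.

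Aldolase was among the most abundant steps. Aldoa (chromosome 7, 126795234 to 126800751) had 785 and 843 TPM from 43517 and 40222 counts. Aldoc, the zebrin antigen of Purkinje cell bands that is also made by astrocytes and is not among the 45, had 18131 and 15814 TPM. Aldoa was thus 4.15% of the aldolase pair in pool 1 and 5.06% in pool 2, or 12.7% and 15.8% when only protein-coding transcripts were counted.

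In the later steps of glycolysis, where triose phosphates become pyruvate, levels were moderate to high. Tpi1, triose phosphate isomerase, had 73.0 and 74.6 TPM. Gapdh, which reduces NAD, had 740.26 and 860.25 TPM. Pgk1, phosphoglycerate kinase, had 110.03 and 116 TPM, and Pgam1, phosphoglycerate mutase, had 190.3 and 218 TPM.

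The Gapdh value depended on a short transcript. Gapdh-206, a retained-intron form of 565 bases, held 63.8% of the gene's TPM in pool 1 and 74.7% in pool 2, and 40.7% and 53.5% of its counts. Protein-coding transcripts gave 268 and 217 TPM, which on that scale places Gapdh near Pkm rather than near Aldoa. A further 196 genes had a transcript with at least 90% identity over at least 50% of a Gapdh transcript, called near-identical copies here. The 176 of these with deposited values carried 26.6% and 26.5% of the counts of Gapdh and its copies together.

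Enolase was split between the general form Eno1 and the neuronal form Eno2, which is used as a neuronal marker. Eno1 had 63.5 and 91.8 TPM, and Eno2 41.2 and 42.4 TPM. Eno2 was 39.4% of the pair in pool 1 and 31.6% in pool 2, averaging 35.5% ± 5.49, so the general form was the higher in both pools.

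Eno1b, a gene with 96.7% identity to Eno1, had 55.5 and 58.4 TPM from 3735 and 3386 counts. Reads of these genes are divided by estimation, and with the copies added to Eno1 the Eno2 share was 25.6% and 21.9%. The share therefore moved by more than the spread between pools, and Eno1 stayed the higher form.

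Pyruvate kinase, the last step of glycolysis, is made from Pkm (chromosome 9, 59656368 to 59679375), which had 248 and 267 TPM from 23516 and 21748 counts. Its transcripts carry either of a pair of mutually exclusive exons: the upstream M1 exon gives the constitutively active enzyme of muscle and neurons, and the downstream M2 exon gives the form regulated by fructose bisphosphate that proliferating cells and astrocytes use. The deposited tables hold 1 transcript of each kind, Pkm-202 with M1 and Pkm-201 with M2, both 2432 bases long. The exons are shown because they alone tell the isoforms apart: exon 9 (M1) is at chr9:59675029-59675195 and exon 10 (M2) at chr9:59675568-59675734, both on the plus strand of mm10, 5′ to 3′, with capitals at the 64 of 167 bases that differ.
M1: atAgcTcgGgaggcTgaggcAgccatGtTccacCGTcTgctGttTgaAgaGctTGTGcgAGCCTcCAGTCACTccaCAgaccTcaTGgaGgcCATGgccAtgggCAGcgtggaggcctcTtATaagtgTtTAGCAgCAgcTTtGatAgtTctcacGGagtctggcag
M2: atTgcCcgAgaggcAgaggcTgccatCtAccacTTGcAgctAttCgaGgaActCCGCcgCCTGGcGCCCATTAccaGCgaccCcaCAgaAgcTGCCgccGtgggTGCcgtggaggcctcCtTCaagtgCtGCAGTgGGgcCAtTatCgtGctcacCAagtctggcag

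These exons are 61.7% identical, so a read within either can be assigned. Pkm-202, with M1, had 248.17 TPM in pool 1 and 247.49 in pool 2. Pkm-201, with M2, had 0 and 19.0 TPM, from 0 and 1553 counts. The M1 form was therefore 100% of Pkm in pool 1 and 92.9% in pool 2, averaging 96.4% ± 5.05.

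By the authors' posterior mean estimates the M1 share was 99.6% and 91.8%. If reads of 100 bases, the fragment length that the deposited effective lengths imply, covered Pkm evenly, about 2681 in pool 1 would touch an exon of this length, and 3 such reads would be a share of 0.112%. That limit covers counting error only. For Bergmann glia and astrocytes, summed marker TPM was 3071 in pool 1 and 5307 in pool 2, where M2 was seen. For interneurons it was 160 in pool 1 and 435 in pool 2, of which Npy alone gave 135 and 411. Sums were also higher in pool 2 for granule cell (42.5 and 56.1) and oligodendrocyte markers (38.5 and 54.5). They were lower in pool 2 for microglial (7.82 and 6.45) and for endothelial and mural markers (23.9 and 16.1). Red blood cell (2453 and 16.3) and Purkinje cell sums (95499 and 94812) were lower there as well. The part of RNA of these cells in the M2 signal was not tested.

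Lactate dehydrogenase interconverts pyruvate and lactate, with the Ldhb (H) subunit prevalent in oxidative tissue and the Ldha (M) subunit in glycolytic tissue. Ldhb (chromosome 6, 142490249 to 142507957) had 1108 and 1049 TPM, from 41283 and 31334 counts. Ldha had 26.5 and 40.6 TPM, from 1602 and 2108 counts. Ldhb was 97.7% of the pair in pool 1 and 96.3% in pool 2, averaging 97.0% ± 0.98, and the pools did not differ in which subunit led.

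By expected counts the Ldhb share was 96.3% and 93.7%. The pools differed in which Ldhb transcript was higher by TPM: Ldhb-201 of 1304 bases held 53.5% and 43.3%, and the shorter Ldhb-202 of 685 bases 46.5% and 56.6%. By counts Ldhb-201 led in both pools, at 70.3% and 61.1%. A processed pseudogene with 97.7% identity, Gm5514, had 220 and 161 TPM, beside 1108 and 1049 for Ldhb. By counts, which are not corrected for length, it held 4.28% and 3.59% of Ldhb and its copy together.

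The mitochondrial pyruvate carrier had the highest member of all. Mpc1 (chromosome 17, 8282904 to 8297661) had 1368 and 1687 TPM from 40763 and 41911 counts, which placed it at rank 71 among protein-coding genes. Mpc2, its obligate partner in the heterodimer, had 300.45 and 267 TPM from 5811 and 4251 counts. Mpc1 was 82.0% and 86.4% of the pair.

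The imbalance was larger on protein-coding transcripts. Mpc2-203, a non-coding transcript of 493 bases, had 255 and 236 TPM, the larger share of Mpc2 in both pools, which left 44.6 and 31.0 TPM in coding transcripts. On that scale Mpc1 exceeded Mpc2 30.7-fold and 54.4-fold, against 4.55-fold and 6.33-fold by gene-level TPM. The pseudogene Mpc1-ps, with 99.6% identity over 62.7% of the Mpc1 transcript, had 230 and 318 TPM, beside 1368 and 1687 for Mpc1. By counts, which are not corrected for length, it held 5.03% and 5.78% of Mpc1 with its copies.

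Pyruvate dehydrogenase, the mitochondrial complex that makes acetyl-CoA, had uneven subunit levels. The E1 subunits Pdha1 and Pdhb had 24.2 and 29.3 TPM and 58.9 and 48.8 TPM in pools 1 and 2. Dlat, the E2 core, had 5.33 and 4.86 TPM, and Pdhx, which anchors E3, had 5.92 and 10.3 TPM. Dld, the E3 subunit shared with other dehydrogenases, had 15.3 and 18.3 TPM.

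Pdhb exceeded Dlat 11.1-fold in pool 1 and 10.05-fold in pool 2, a ratio that varied little between pools. Pdha1 was 0.41 and 0.60 times the level of Pdhb, so the E1 pair was not balanced in either pool. All these subunits were within 1.5-fold between the pools on TMM-scaled counts.

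The pyruvate dehydrogenase kinases, which switch the complex off, were low. Pdk3 had 6.61 and 10.00 TPM and Pdk2 3.69 and 7.82 TPM. Pdk1 had 0.44 and 0.73 TPM and Pdk4 0.32 and 0.63 TPM, from 66 and 103 counts and 44 and 75 counts. Pdk3 was 59.8% and 52.1% of the 4 kinases by TPM, with Pdk2 at 33.4% and 40.8%. By counts or protein-coding transcripts the pools disagreed on which of Pdk3 and Pdk2 was higher. The phosphatase Pdp1, which reverses the kinases and is not among the 45, had 7.31 and 8.55 TPM.

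The TCA cycle was detected at every step covered, at moderate levels apart from the malate dehydrogenases. Cs, citrate synthase, which joins acetyl-CoA to oxaloacetate, had 41.4 and 55.0 TPM. The NAD-linked isocitrate dehydrogenase had 37.1 and 37.8 TPM for Idh3a, 82.2 and 90.1 for Idh3b, and 54.1 and 59.4 for Idh3g. Its subunits kept the order Idh3b, Idh3g, Idh3a in both pools, with Idh3b 2.22-fold and 2.39-fold above the catalytic Idh3a.

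The NADP-linked forms were far lower. Idh1, the cytosolic enzyme (chromosome 1, 65158616 to 65186500), had 5.72 and 18.6 TPM, and Idh2, the mitochondrial one, 2.00 and 5.65 TPM. Idh1 was 3.16% of isocitrate dehydrogenase TPM in pool 1 and 8.78% in pool 2, and Idh2 1.10% and 2.67%, so the NAD-linked subunits held most of it in both.

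Next in the cycle, Ogdh, the E1 subunit of oxoglutarate dehydrogenase, had 12.6 and 17.0 TPM, and its E2 core Dlst had 6.27 and 5.52 TPM. Suclg1, the alpha subunit of succinate-CoA ligase, had 36.1 and 52.4 TPM. The beta subunit that sets ADP use, Sucla2, had 59.9 and 44.7 TPM, and Suclg2, which sets GDP use, 0.62 and 2.75 TPM from 55 and 210 counts.

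The ADP-forming subunit was therefore 99.0% and 94.2% of beta subunit TPM, and 98.1% and 93.9% on protein-coding transcripts. The higher Sucla2 value of pool 1 came from Sucla2-202, a non-coding transcript of 538 bases with 506 counts in pool 1 and 30.7 in pool 2. Protein-coding transcripts of Sucla2 had 31.3 and 42.2 TPM, the opposite order of the pools.

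Fh1, fumarase, had 19.4 and 49.0 TPM from 612 and 1158 counts. Most of that was Fh1-205, a short coding fragment of 542 bases with 83.5% and 86.2% of the gene's TPM, while the full-length Fh1-201 had 3.06 and 5.18 TPM. The 2 malate dehydrogenases, cytosolic and mitochondrial, also carry the malate-aspartate shuttle of reducing equivalents. Mdh1 (chromosome 11, 21556787 to 21572367) had 856 and 746 TPM, from 70144 and 52572 counts, the most counts of the 45 genes in both pools. Mdh2 had 182 and 195 TPM.

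Mdh1 was 82.5% and 79.3% of the malate dehydrogenase pair. For Mdh2, 77.5% and 84.8% of TPM lay in Mdh2-203, a transcript annotated for nonsense-mediated decay, and its protein-coding transcript had 40.65 and 29.7 TPM. On coding transcripts Mdh1 was 95.5% and 96.2% of the pair.

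Across the 45 genes, the share of TPM in protein-coding transcripts sorted them into a large uniform group and a few exceptions. That share was at least 90% in both pools for 31 genes, and under 50% in both for 5, which were Slc2a3, Hk2, Gapdh, Mpc2 and Mdh2. These 5 were also the detected genes whose highest transcript was of a non-coding type. Of 34 detected genes with several transcripts, 33 had the same highest transcript in both pools, the exception being Ldhb. These counts are not given over all genes, so they do not set the pathway apart. Outside the 45, Gad1 had 675 and 639 TPM but 2.00 and 1.03 in protein-coding transcripts. Calb1 had 2414 and 2064 TPM, and 2410 and 2061 in such transcripts. Short transcripts carry more TPM per read. Across the 45 genes log2(TPM + 1) fell with length (Spearman's rho -0.70), a description over genes that share their libraries and the length correction. The deposited length of a gene is a mean over its transcripts weighted by abundance. Short abundant transcripts thus lower the length as they raise TPM, and the relation is partly built in.

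**Figure D3:**
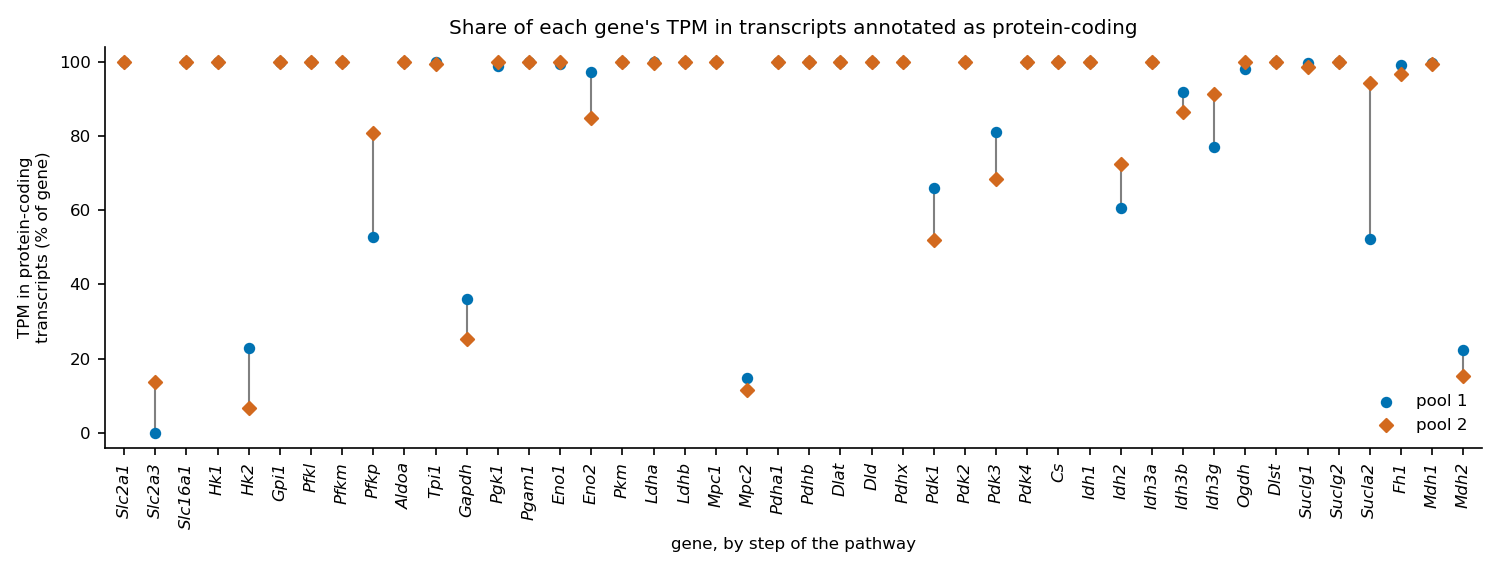
Percent of each gene's TPM that lay in transcripts annotated as protein-coding (y axis) in pool 1 (circles) and pool 2 (diamonds), by gene along the pathway; Slc16a7, at 0 in pool 1, is left out. Most genes lie at or near 100%, and Slc2a3, Hk2, Gapdh, Mpc2 and Mdh2 lie below 50% in both pools.

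The counts of some genes are shared with other loci. Near-identical copies were found for 13 of the 45 genes, 245 in all, of which 207 had rows in the tables. Gapdh alone had 196 of the 245. Only the 45 genes were searched for copies, so no share over all genes is given. The share of counts on copies was above 2% in either pool for Eno1, Gapdh, Mpc1, Ldhb, Pgk1 and Gpi1, and lower for the rest, including Ldha with 18 copies and Aldoa with 6. In addition, 10 genes overlapped a counted gene on the opposite strand, and apart from Pfkp the overlapping gene's counts were at most 5.58% of the member's, for Hk1 and its antisense gene Hk1os in pool 2.

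Among the 76 other genes of glucose metabolism, 36 were detected in both pools, 8 in one and 32 in neither, so that list was covered less fully than the 45 (47.4% in both pools). With a mean TPM of at least 10 were 15 of them. Succinate dehydrogenase, a step of the TCA cycle that the 45 leave out, was present, with its subunits Sdha at 58.9 and 77.1, Sdhb at 168 and 165, Sdhc at 36.7 and 42.5 and Sdhd at 30.5 and 40.9.

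Of the malate-aspartate shuttle, the genes at that level were the transaminases Got1 (119.62 and 106 TPM) and Got2 (46.9 and 42.6) and the malate-oxoglutarate carrier Slc25a11 (11.4 and 22.1). Also above that level were Pgm1 of glycogen metabolism (17.4 and 24.0), Taldo1 of the pentose phosphate pathway (23.7 and 15.6), the malic enzyme Me1 (8.27 and 11.99) and the citrate-cleaving Acly (12.1 and 8.65). Aldoc, Eno1b and Bsg, given above, were also among the 15.

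Between the pools, the pathway was steadier than its least abundant genes. Ratios are of counts scaled by TMM, a normalisation on the bulk of genes, given as pool 1 over pool 2. Among the 44 members with 10 or more counts over both pools, 4 were past 2-fold (9.09%), against 32.0% of the 14478 genes of that depth. None of the 4 was higher in pool 1, where 15.6% of all genes lay, and all were higher in pool 2, where 16.4% lay. The median log2 ratio was 0.04 for the 44 genes and 0.01 for all genes.

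Depth bears on that count. With at least 1000 counts, 1 of 33 members differed by more than 2-fold, against 5.64% of all genes of that depth. With at least 10 counts and under 1000 it was 3 of 11, against 39.4%. Most members thus lie in the deeply covered range, and both member counts are small.

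The 4 genes were Suclg2 (3.66-fold higher in pool 2), Idh1 (2.68-fold), Idh2 (2.65-fold) and Hk2 (2.02-fold). Idh1 had 509 counts in pool 1 and 1422 in pool 2, Idh2 93 and 257, Suclg2 55 and 210, and Hk2 138 and 291. On counts of protein-coding transcripts Hk2 was 1.15-fold higher in pool 2, and Slc2a3, with 0 and 66.8 such counts, took its place among 4 genes. Next below the threshold were Fh1 (1.82-fold), Pdk2 (1.75-fold) and, in the other direction, Slc2a1 (1.80-fold higher in pool 1).

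Marker lists differed between the pools in both directions. Of the 14 Bergmann glia and astrocyte markers, 12 were higher in pool 2 on the same scale, with a median log2 ratio of -0.57, and the widest, Sox9, was 2.03-fold higher there. Of 8 interneuron markers with enough counts, 5 were higher in pool 2, with a median of -0.43, and 3 were past 2-fold. Those past 2-fold were Npy (2.52-fold) and Cdh22 (3.47-fold), higher in pool 2, and Pax2 with 0 and 11 counts. The 3 that went the other way were Kit (1.78-fold), Prkcd (1.44-fold) and Lgi2 (1.07-fold), each higher in pool 1. Purkinje markers had a median of 0.34, with 11 of 12 higher in pool 1. Medians were also above 0 for microglial (1.03), endothelial and mural (0.74) and oligodendrocyte markers (0.08). For granule cell markers the median was -0.19. The part of glial or interneuron RNA in the higher Idh1, Idh2 and Suclg2 counts of pool 2 was not tested.

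By step, the median log2 ratio was 0.17 for glycolysis, 0.06 for lactate dehydrogenase, -0.01 for pyruvate use, -0.04 for the TCA cycle and -0.03 for the carriers with enough counts. In glycolysis 10 of 14 genes were higher in pool 1, with ratios no larger than 1.27-fold. Scaling by spike-in totals in place of TMM moved the median of all genes to 0.78 and that of the members to 0.81, so members slightly higher in pool 2 under TMM were higher in pool 1 on that scale. On that scale 11 members were more than 2-fold higher in pool 1 and only Suclg2 more than 2-fold higher in pool 2.

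**Figure D4:**
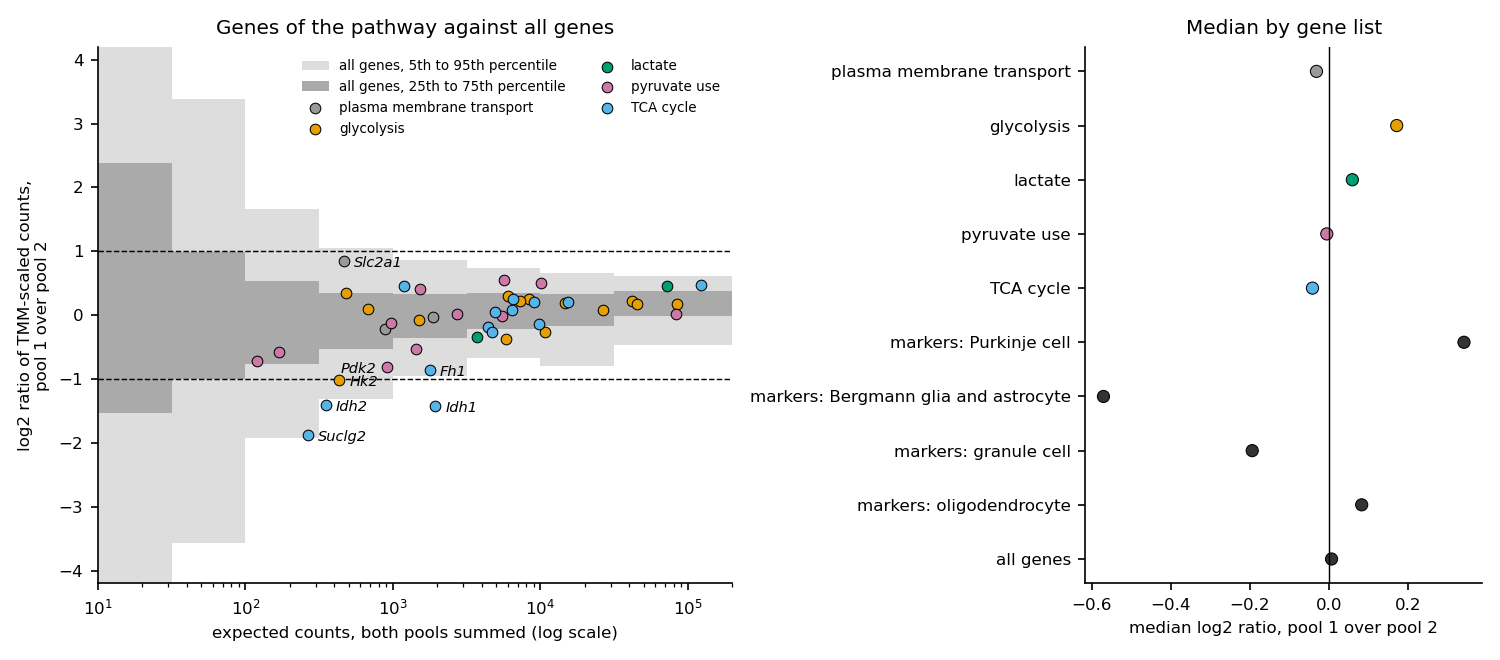
Left, log2 ratio of TMM-scaled counts, pool 1 over pool 2 (y axis), against summed expected counts on a log scale (x axis) for 44 genes coloured by step, over the range of all genes in bins of counts (grey bands) with dashed lines at 2-fold; right, the median of that ratio for each step, for 4 marker lists and for all genes. Suclg2, Idh2, Idh1 and Hk2 lie below the lower line, and no member lies above the upper one. The Bergmann glia and astrocyte median lies at -0.57, opposite in sign to the Purkinje median of 0.34.

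The genes were also compared by the sequence before their starts. RefSeq promoters on GRCm38.p6, which run from 250 bases before to 50 after a start, were matched for 42 of the 45 genes, from 61 starts. The motif ACGTG, the core that hypoxia-inducible factors bind and that also lies inside the E-box CACGTG, was present on either strand in 17 of 42 genes (40.5%), against 23.7% of 16317 protein-coding genes. By step it was found in both carriers matched, 8 of 14 glycolytic genes, 1 of 2 lactate dehydrogenase genes, 3 of 11 genes of pyruvate use and 3 of 13 of the TCA cycle. The related core GCGTG was present in 26 of 42 genes (61.9%), against 42.9%. It was found in both carriers, 7 of 14 glycolytic genes, both lactate dehydrogenase genes, 8 of 11 genes of pyruvate use and 7 of 13 of the TCA cycle, so the steps were not in the same order for the 2 motifs.

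Over single windows rather than genes, ACGTG lay in 21.2% and GCGTG in 39.8% of 19931 promoters of protein-coding genes. Promoters of members were richer in G and C, with a median of 62.0%, against 57.0% for protein-coding genes, and the part of base composition and of the number of starts per gene in these shares was not tested. The match is of letters only. The 45 genes lie on 17 chromosomes, and 4 of them (Pgk1, Pdha1, Pdk3 and Idh3g) on the X chromosome, which male mice carry singly.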

How the data were processed

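RNA of 2 pools of 30 laser-captured Purkinje cells was analysed from tables that the authors made per library against mm10 with GENCODE annotation M4, per the text deposited with them. Which aligner and quantifier were run is not given in the sources used. The deposited expected counts are estimated reads per gene or transcript, per the file headers. The deposited TPM values are scaled to a fixed total over all rows, spike-ins included, and the authors' FPKM values and posterior mean TPM served as alternatives. Each transcript's percent of its gene was likewise deposited.

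GENCODE M21, also on mm10, supplied gene symbols, transcript types and coordinates. Shares and medians were computed in each pool and given as mean ± SD. Pool ratios used TMM factors of 0.98 and 1.02 (edgeR 4.0.16) on genes with at least 10 counts in total, with DESeq2 1.42.0 size factors, total counts and spike-in totals as alternatives; a gene past 2-fold was counted as different. With 1 library on each side no test was run. The ratio code was tested on simulated data. Copies were found with BLAST 2.17.0 at 90% identity over at least 50% of a member's protein-coding transcript. Bias of reads of the cross towards the reference allele was not tested.

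All 45 members are accounted for. Other genes of the pathway are named at a mean TPM of at least 10, apart from Pdp1, Hk3 and Hkdc1, the pseudogenes and the overlapping genes, which were chosen after their values were seen, and markers by their sums, zeros and exceptions; some genes of that list are not reported here. Members and lists were chosen with earlier results of these data known, and the count on protein-coding transcripts was added after the data were seen.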

Additional observations from a re-analysis of the deposited data

How the results depend on the processing

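The 41 genes detected in both pools became 32 at a TPM of at least 5 and 44 at 0.1, and the median level moved by less than the SD between pools under every alternative run. Shares were less stable. Counting only protein-coding transcripts, chosen after seeing the data, gave an Hk1 share of 73.0% in place of 27.8% and a Pfkm share of 79.0% in place of 73.6%. By expected counts the Hk1 share was 54.0% and the Ldhb share 94.98% in place of 97.0%. Adding near-identical copies gave an Eno2 share of 23.7% in place of 35.5%. From either pool alone, the share ran from 13.2% to 42.4% for Hk1, 71.2% to 75.9% for Pfkm, 31.6% to 39.4% for Eno2, 96.3% to 97.7% for Ldhb and 92.9% to 100% for the M1 form; detection ran from 41 to 42 genes and the median level from 4.65 to 5.28. The median log2 ratio of members, 0.04 under TMM, was -0.16 under total counts, -0.23 as a ratio of TPM + 1 and 0.81 under spike-in totals, each moving with the median of all genes. The 4 genes past 2-fold became 12 under spike-in totals and 4 to 6 under the other alternatives. Near-identical copies were found for 8 genes, in place of 13, when 80% of the transcript had to match. Leaving out a pool gives no ratio between pools. No paired analysis was possible because there is a single group. With 2 pools each SD rests on a single difference, and for genes under 100 counts, such as Suclg2 in pool 1, counting error is large as well.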
